A study of Mus musculus with 23 samples.

Results

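The 9 genes described here form the homeostatic signature of microglia, the resident macrophages of the brain. They were chosen by symbol and comprise the receptors P2ry12, P2ry13, Gpr34 and Cx3cr1, the surface proteins Tmem119, Siglech and Fcrls, and the secreted proteins Olfml3 and Sparc. All 9 were found once each among the 53090 genes of the deposited tables, and all 9 were among the 18720 genes kept by the filter on low counts. Messenger RNA was sequenced in microglia from brains of female C57BL/6 mice. The 23 libraries fell into 4 groups, young (Y, 7 libraries), young repopulated (Y-re, 3 libraries), old (O, 5 libraries) and old repopulated (O-re, 8 libraries). Repopulated mice had received PLX5622, an inhibitor of the receptor CSF1R on which microglia depend, in AIN-76A chow at 1200 ppm, so that their microglia were new cells that refilled the brain after depletion, while control chow held no drug. Age in months, length of the drug diet and time allowed for refilling are not given in the sources used here. Nor is it said whether each library came from a separate animal, so the p-values measure the spread between these libraries, which may in part be technical. One protocol text tells of magnetic selection for CD11b and then culture, while the one on RNA extraction speaks of cells sorted by flow cytometry. Replicate numbers below only name libraries, in accession order.

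The members mark microglia in the resting brain. P2ry12 and P2ry13 are receptors for ADP, and P2ry12 steers microglial processes toward sites where nucleotides leak from cells. Cx3cr1 is the receptor for the neuronal chemokine fractalkine, Gpr34 is a receptor for lysophosphatidylserine, and Siglech is a sialic acid-binding lectin that signals through the adaptor Tyrobp. Fcrls is a mouse Fc receptor-like scavenger protein, Tmem119 is a membrane protein that separates microglia from most other macrophages, Olfml3 is a secreted olfactomedin-like protein, and Sparc is a secreted matrix-associated protein. As background, much of the set depends on TGF-beta signalling and on the myeloid factor PU.1, and its members are commonly reduced when microglia are activated or removed from the brain. Cx3cr1 is also expressed by some monocytes and Siglech by plasmacytoid dendritic cells, so neither is exclusive to microglia.

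On mouse build GRCm38 (GENCODE M21, whose versioned identifiers matched those of the deposited tables for all 9 genes), 4 members lie on chromosome 3. P2ry13 (ENSMUSG00000036362.2) spans 59207892 to 59210882 and P2ry12 (ENSMUSG00000036353.13) spans 59216272 to 59262871, both on the minus strand and next to each other within the region of Med12l, which is read from the opposite strand. Fcrls (87250758 to 87263738, minus strand) and Olfml3 (103722222 to 103738001, minus strand) are also on chromosome 3. Tmem119 lies on chromosome 5 (113793729 to 113800516, minus strand), Siglech on chromosome 7 (55768178 to 55778925, plus strand), Cx3cr1 on chromosome 9 (119901616 to 120069879, minus strand), Sparc on chromosome 11 (55394500 to 55423183, minus strand) and Gpr34 on chromosome X (13632089 to 13640858, plus strand) within the region of Cask on the opposite strand. The library kit keeps strand, but whether counting used it was not given in the sources used here, so reads of P2ry12, P2ry13 and Gpr34 cannot be told apart with certainty from those of the opposite-strand genes Med12l (mean count 1165) and Cask (mean count 1638). The annotated span of Cx3cr1 holds genes of both strands. Csrnp1 (mean count 8894), Gorasp1 and Xirp1 lie on its own strand, and whether their exons overlap those of Cx3cr1 was likewise not tested.

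The promoter stretches of 3 members are shown because P2ry12 and P2ry13 are the neighbouring pair whose levels moved most closely together across libraries once group means were removed, and Fcrls is the member whose level followed the others least. Each run is the 250 bases before the RefSeq gene start on GRCm38.p6, written 5′ to 3′ on the gene's strand, with matches to the PU.1 core GAGGAA in capitals.
P2ry12, chr3:59262986-59263235, strand -: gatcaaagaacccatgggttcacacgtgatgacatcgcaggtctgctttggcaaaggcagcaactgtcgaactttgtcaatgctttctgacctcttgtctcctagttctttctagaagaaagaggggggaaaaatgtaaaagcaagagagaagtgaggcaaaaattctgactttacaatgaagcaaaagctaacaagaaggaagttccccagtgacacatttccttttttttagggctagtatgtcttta
P2ry13, chr3:59210883-59211132, strand -: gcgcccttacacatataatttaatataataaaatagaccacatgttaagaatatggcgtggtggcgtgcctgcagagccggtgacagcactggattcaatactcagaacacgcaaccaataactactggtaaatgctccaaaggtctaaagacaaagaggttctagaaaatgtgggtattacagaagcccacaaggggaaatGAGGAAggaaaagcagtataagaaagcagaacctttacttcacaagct
Fcrls, chr3:87263525-87263774, strand -: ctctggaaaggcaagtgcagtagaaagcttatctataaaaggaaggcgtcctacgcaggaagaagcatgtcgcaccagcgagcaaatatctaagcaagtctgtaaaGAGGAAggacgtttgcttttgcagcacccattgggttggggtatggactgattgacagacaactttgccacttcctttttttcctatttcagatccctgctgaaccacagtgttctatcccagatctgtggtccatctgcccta
RefSeq promoters were matched for 7 of the 9 genes, all but Tmem119 and Gpr34. The letters GAGGAA, searched on both strands, occurred in 2 of these 7, in P2ry13 starting 48 bases before the RefSeq start and in Fcrls starting 144 bases before it, against 23.3% of 32851 promoter stretches of the same length. The Fcrls stretch overlaps the GENCODE span of the gene, which ends at 87263738, and its GAGGAA match lies inside that span. CAGAC, the SMAD box, occurred in 5 of 7 against 42.2% of all stretches, and TGTGGT, a RUNX core, in 4 of 7 against 14% of all stretches. None of the 3 motifs contains another, and a match describes letters in this window, not a binding site.

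Total expected counts ran from 43657297 to 58189402 per library, so that the members, at 100 CPM or more in each library (CPM, counts per 1000000 after TMM scaling), were deeply covered and the number of libraries, not the depth, limits the precision. Together the 9 genes took 1.42 to 1.83% of all counts in young libraries, 1.16 to 1.35% in young repopulated, 0.486 to 1.4996% in old and 0.499 to 1.64% in old repopulated libraries. On the per-length scale (TPM, the deposited unit that corrects for transcript length) Sparc had the highest mean level in every group and Fcrls the next, while P2ry13 had the lowest. In young libraries the mean TPM was 2947 ± 310.4 (SD, n = 7) for Sparc and 2631 ± 518 for Fcrls, whose ranges overlapped, and both lay above every value of the next gene, P2ry12 at 1429 ± 243. Cx3cr1 (1369 TPM), Gpr34 (909.8 TPM), Olfml3 (850.4 TPM), Tmem119 (807 TPM) and Siglech (616 TPM) followed, each with a range that overlapped that of the gene before it, and P2ry13 (335 TPM) lay below all values of Siglech. In old and old repopulated libraries every neighbouring pair in the order overlapped. Deposited effective lengths, which would move with a change in the mix of transcripts, were the same in all libraries for P2ry13, ran from 2223.75 to 2224.08 bases for Fcrls, and spanned 1557 to 1754 bases for Siglech, 4001 to 4320 bases for Olfml3 and 1927 to 2085 bases for Sparc.

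**Figure D1:**
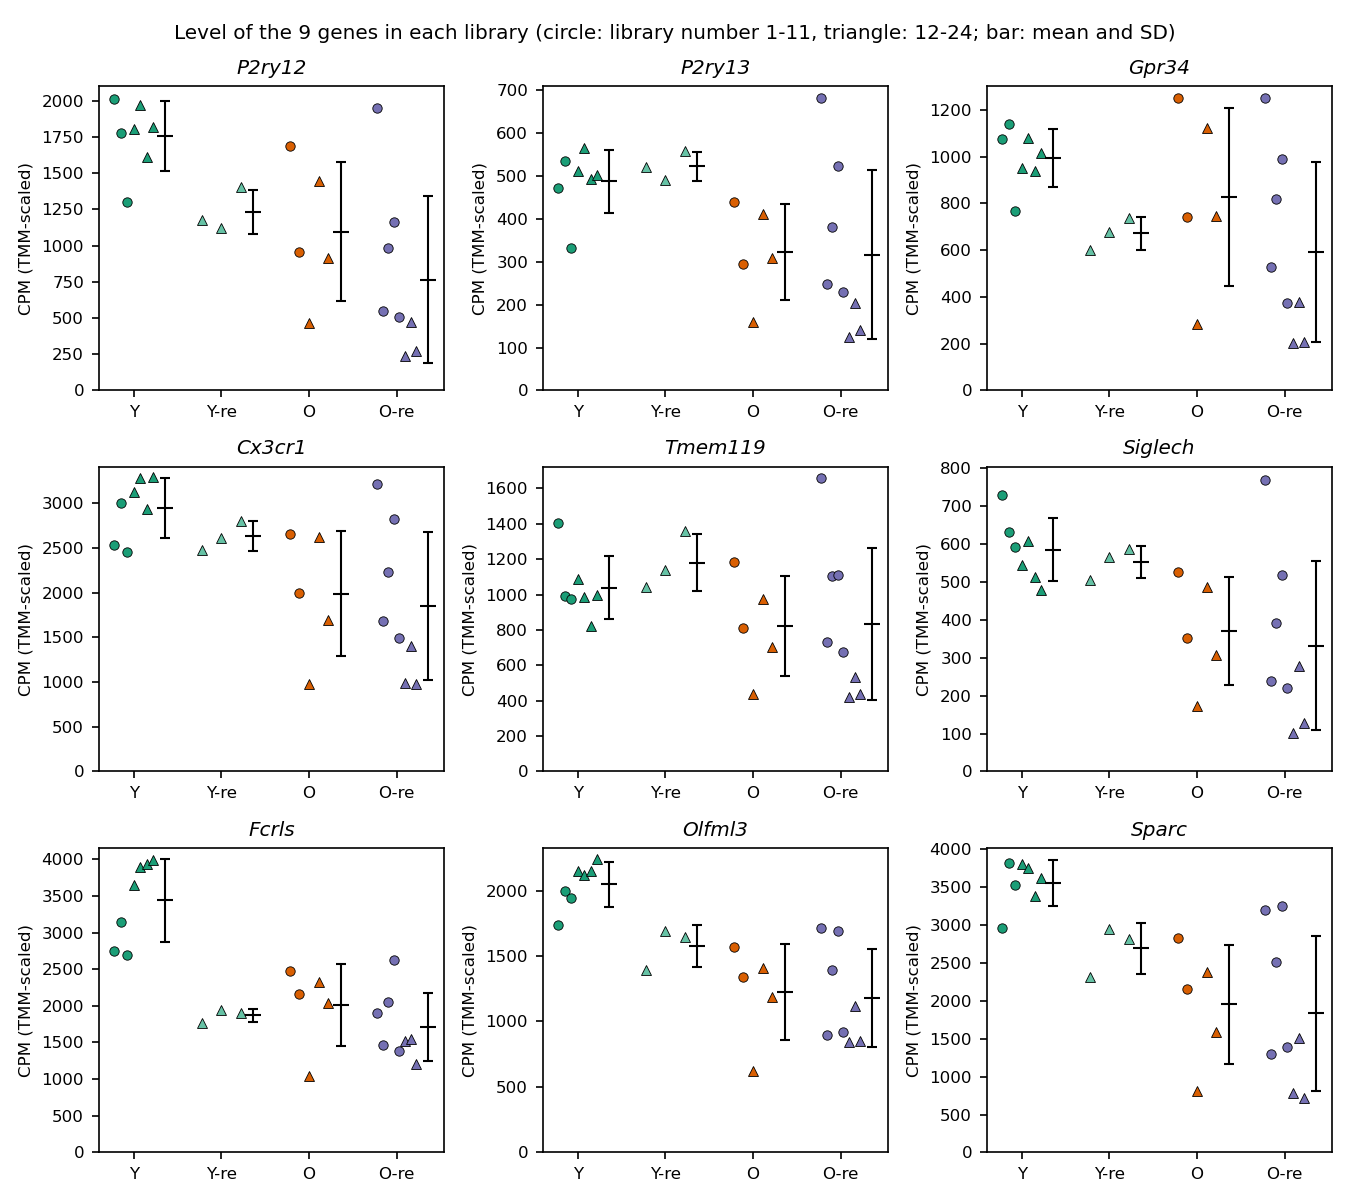
TMM-scaled level in CPM (vertical axes, from 0) of each of the 9 genes in each of 23 libraries, by group (Y young, Y-re young repopulated, O old, O-re old repopulated), with circles for library numbers 1 to 11, triangles for 12 to 24, and a bar for mean and SD. Young libraries sit close together, while old repopulated libraries reach down to 102 CPM for Siglech and 239 CPM for P2ry12. Their upper values overlap the young range, except for Fcrls and Olfml3, where all lie below it.

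The question of age was addressed by comparing old with young resident microglia. All 9 members had a lower estimate in old microglia, but only Fcrls passed the test across all genes. The median log2 fold change of the 9 was -0.66, with a range of -0.86 for Sparc to -0.27 for Gpr34, beside a median of -0.01 over all 18720 genes tested. Of all genes tested, 0.235% were called lower and 2.6% higher at an adjusted p under 0.05 (edgeR quasi-likelihood test, Benjamini-Hochberg over all genes), and 1 of 9 members was called lower and 0 higher. At an unadjusted p under 0.05 there were 4 members, Fcrls, Olfml3, Sparc and Cx3cr1, beside 2870 of all 18720 genes.

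Fcrls, the scavenger-type receptor, was at 2696, 3649.9 and 3996 CPM in the lowest, median and highest young library and at 2470.4, 2162, 1045, 2321 and 2044 CPM in old libraries 1 to 5. Every old library lay below every young one. Its level fell by 0.78 ± 0.197 on the log2 scale (SE, 95% interval -1.18 to -0.37, adjusted p = 0.0340 by edgeR), from 3439 ± 566 CPM (SD, n = 7) to 2009 ± 562 CPM (n = 5). That call was lost when any of young libraries 4, 5, 6 or 7, young repopulated library 2, or old libraries 3 or 5 was left out, with adjusted p up to 0.128.

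Olfml3 measured 1735, 2122 and 2244 CPM at the lowest, median and highest young library and 1567, 1343, 619, 1409.9 and 1185 CPM in old libraries 1 to 5. The groups did not overlap, the log2 fold change was -0.74 ± 0.207, and the adjusted p of 0.0529 by edgeR missed the threshold, which it passed when old library 1 or old repopulated library 1, 2, 4, 6 or 8 was left out. For Sparc the young values ran from 2962 through a median of 3623 to 3814 CPM, and old libraries 1 to 5 held 2829.8, 2153, 807, 2379.9 and 1589.8 CPM. Here too the groups were apart, with a log2 fold change of -0.86 ± 0.333 and an adjusted p of 0.191 by edgeR. Of all genes tested, 0.78% had every old library below every young one, and among the members these were Fcrls, Olfml3 and Sparc.

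The 4 receptors overlapped between young and old. P2ry12 was at 1298, 1804 and 2011 CPM in the lowest, median and highest young library and at 1689, 955, 468, 1444 and 914 CPM in old libraries 1 to 5, so that 3 of 5 old libraries lay below all young ones. Its log2 fold change was -0.68 ± 0.397 (95% interval -1.505 to 0.14). P2ry13 (-0.60 ± 0.333), Cx3cr1 (-0.57 ± 0.267) and Gpr34 (-0.27 ± 0.380) likewise had old library 3 as the lowest of the old group. For Tmem119 the log2 fold change was -0.34 ± 0.287 and for Siglech -0.66 ± 0.364. None of these 6 passed the test, and their 95% intervals had lower bounds of -1.505 to -0.93 and upper bounds of -0.01 to 0.52.

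**Figure D2:**
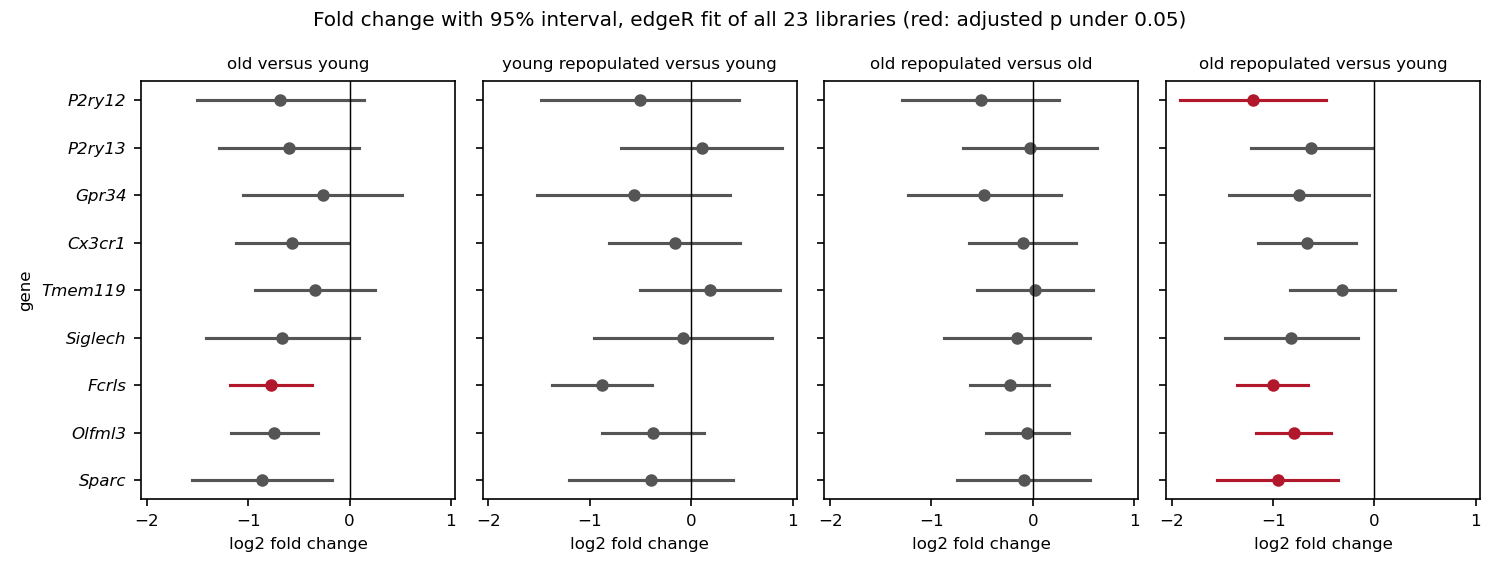
Log2 fold change (horizontal axes) with 95% interval for each of the 9 genes in 4 comparisons from the edgeR fit of all 23 libraries, in red where the adjusted p was under 0.05. Fcrls is red in old versus young, none is red in the comparisons of repopulated with resident cells of the same age, and P2ry12, Fcrls, Olfml3 and Sparc are red in old repopulated versus young.

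Renewal in young mice was examined by comparing young repopulated with young microglia. None of the 9 members was called in the fit of all 23 libraries, where 0.513% of all genes tested were called lower and 0.828% higher. One member, Fcrls, had an unadjusted p under 0.05, beside 2832 of all 18720 genes, and DESeq2 called 1 member, again Fcrls. The members did not share 1 direction, since 7 of 9 had a lower estimate and P2ry13 and Tmem119 a higher one, and their median log2 fold change was -0.38 beside -0.04 over all genes.

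Fcrls was at 1767, 1945 and 1898 CPM in young repopulated libraries 1 to 3, all below the lowest young value of 2696 CPM. The log2 fold change was -0.88 ± 0.238 (95% interval -1.37 to -0.39) and the adjusted p was 0.0685 by edgeR. It passed the threshold in library numbers 12 to 24 alone (-1.02, adjusted p = 0.0119) and when young library 3, old library 3 or old repopulated library 4 was left out. All 3 young repopulated libraries belong to numbers 12 to 24.

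Gpr34 held 599.8, 677 and 737 CPM in young repopulated libraries 1 to 3 against 767, 1016 and 1139 CPM in the lowest, median and highest young library. Olfml3 held 1396, 1694 and 1643 CPM and Sparc 2316, 2949.9 and 2816 CPM in the same 3 libraries. Each of these was below every young library, with log2 fold changes of -0.57 ± 0.458, -0.38 ± 0.243 and -0.40 ± 0.391, none of which passed the test. With 3 libraries on 1 side such separation was common: 6.13% of all genes tested had every young repopulated library below every young one, against 4 of 9 members. These SEs come from the fit of all 23 libraries, whose estimate of spread also draws on the more variable old groups. With only the young and young repopulated libraries fitted, 5 members were called lower, P2ry12, Fcrls, Gpr34, Olfml3 and Sparc. In that fit 1255 of 16726 genes were called in either direction.

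P2ry12 was at 1175, 1119 and 1407 CPM in young repopulated libraries 1 to 3, of which the first and second lay below all young libraries. The other ADP receptor, P2ry13, measured 521, 489 and 558 CPM, inside the young range of 333 to 565 CPM. Tmem119 measured 1044, 1138 and 1359.9 CPM, in the upper part of the young range of 825 to 1404 CPM. Cx3cr1 (2472, 2616 and 2806 CPM) and Siglech (505, 566 and 588 CPM) also lay inside their young ranges. The log2 fold changes were -0.51 ± 0.472 for P2ry12, 0.10 ± 0.385 for P2ry13, 0.18 ± 0.332 for Tmem119, -0.16 ± 0.313 for Cx3cr1 and -0.08 ± 0.423 for Siglech. The ratio of Fcrls to Tmem119 CPM was 1.40 to 1.71 in young repopulated libraries and 1.96 to 4.77 in young ones, without overlap. In old libraries that ratio was 2.09 to 2.90, and in old repopulated libraries it ran from 1.15 to 3.63, with the lowest value in library 1.

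Renewal in old mice was examined by comparing old repopulated with old microglia. No member was called, with unadjusted p over 0.05 for all 9 by edgeR and 0 calls by DESeq2, while 0.214% of all genes tested were called lower and 0.0641% higher. The median log2 fold change of the members was -0.10, with a range of -0.52 (P2ry12) to 0.02 (Tmem119), beside 0.0037 over all genes. Every member's libraries overlapped between the groups, and 0.433% of all genes tested had each old repopulated library below each old one. The widest interval was that of P2ry12, from -1.29 to 0.26, and the narrowest that of Fcrls, from -0.62 to 0.16. These bounds include a difference below -1 in P2ry12 and Gpr34 (-1.23 to 0.27) but not in Fcrls or Olfml3 (-0.46 to 0.35). For Cx3cr1, P2ry13, Olfml3, Sparc and Tmem119 the sign of the estimate turned when single libraries were left out.

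Renewed cells of old mice were also set against resident cells of young mice. In old repopulated against young microglia all 9 members had a lower estimate and 4 fell past the threshold, P2ry12, Fcrls, Olfml3 and Sparc. In this comparison 5.92% of all genes tested were called lower and 9.29% higher. The members' median log2 fold change was -0.80 beside -0.02 over all genes, and 8 of 9 had an unadjusted p under 0.05, all but Tmem119, as had 5704 of all 18720 genes. The count of members called was 6 by DESeq2, 9 by voom with sample quality weights, 8 without old repopulated library 1 and 0 in library numbers 1 to 11. The calls over all genes moved with it, from 3691 of 18720 by DESeq2 and 6646 of 18720 by voom to 4772 of 18584 without old repopulated library 1 and 2 of 18746 in numbers 1 to 11. The young libraries are the same ones as in the comparison of old with young.

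P2ry12 had the lowest estimate. It was at 239, 527 and 1947 CPM in the lowest, median and highest old repopulated library, against a lowest young value of 1298 CPM. Of the 8 libraries 7 lay below all young ones, and library 1, at 1947 CPM, lay among the highest young values. The level fell by 1.20 ± 0.347 on the log2 scale (95% interval -1.92 to -0.48, adjusted p = 0.0230 by edgeR), from 1755 ± 241 CPM (n = 7) to 765 ± 576 CPM (n = 8).

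Fcrls was at 1209, 1536 and 2628 CPM in the lowest, median and highest old repopulated library, all below the lowest young value of 2696 CPM. Its level fell by 1.005 ± 0.171 on the log2 scale (adjusted p = 0.000912 by edgeR), to 1714 ± 460.0 CPM (n = 8). Old repopulated library 1, which lay at or above the lowest young value for 7 of the other 8 members (all but Olfml3), had 1900.1 CPM of Fcrls. Olfml3 ran from 842 through a median of 1020.4 to 1710.2 CPM, below its lowest young value of 1735 CPM, and fell by 0.80 ± 0.179 on the log2 scale (adjusted p = 0.00544 by edgeR). Of all genes tested, 1.26% had every old repopulated library below every young one, and among the members these were Fcrls and Olfml3.

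Sparc ran from 715 through a median of 1450.3 to 3254 CPM, with libraries 1 and 4 inside the young range, and fell by 0.95 ± 0.288 on the log2 scale (adjusted p = 0.0285 by edgeR). The Sparc call was lost when any of old repopulated libraries 2, 5, 6, 7 or 8 was left out (adjusted p up to 0.0545), whereas those of P2ry12, Fcrls and Olfml3 held in each of the 23 fits that left out 1 library. Cx3cr1 missed the threshold (981 to 3216 CPM, log2 fold change -0.67 ± 0.233, adjusted p = 0.0544 by edgeR). Siglech (102 to 769.7 CPM), Gpr34 (202 to 1249.6 CPM) and P2ry13 (124 to 681 CPM) had log2 fold changes of -0.82 ± 0.316, -0.75 ± 0.334 and -0.62 ± 0.290, with adjusted p from 0.0795 to 0.148 by edgeR. Tmem119 (420.3 to 1659 CPM) had the smallest difference, -0.32 ± 0.251 (95% interval -0.84 to 0.20).

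Between the renewed cells of both ages no gene was called among all tested (0%). All 9 members had a lower estimate in old repopulated than in young repopulated microglia, with a median log2 fold change of -0.50 beside 0.05 over all genes and a range of -0.74 (Siglech) to -0.13 (Fcrls), and 0 had an unadjusted p under 0.05 by edgeR or were called by DESeq2, beside 2183 of 18720 genes with an unadjusted p under 0.05. The absence of calls depended on the fit: DESeq2 called 92 of 18720 genes and 0 members, the fit with the run of library numbers as a term 846 genes and 0 members, and voom 3189 genes and 7 members. The members' median was -0.997 with the run as a term and -0.89 by voom. All 3 young repopulated libraries carry numbers 12 to 24, while 5 of 8 old repopulated ones carry numbers 1 to 11. No member had each old repopulated library below each young repopulated one, a pattern found in 1.05% of all genes tested. The difference between the renewal effect in old and in young mice, an interaction term, was also called in 0% of all genes. For the members it ran from -0.16 for Tmem119 to 0.65 ± 0.299 for Fcrls (unadjusted p = 0.0403, adjusted p = 0.580 by edgeR), so a different response of Fcrls to renewal at the 2 ages did not pass the test.

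**Figure D3:**
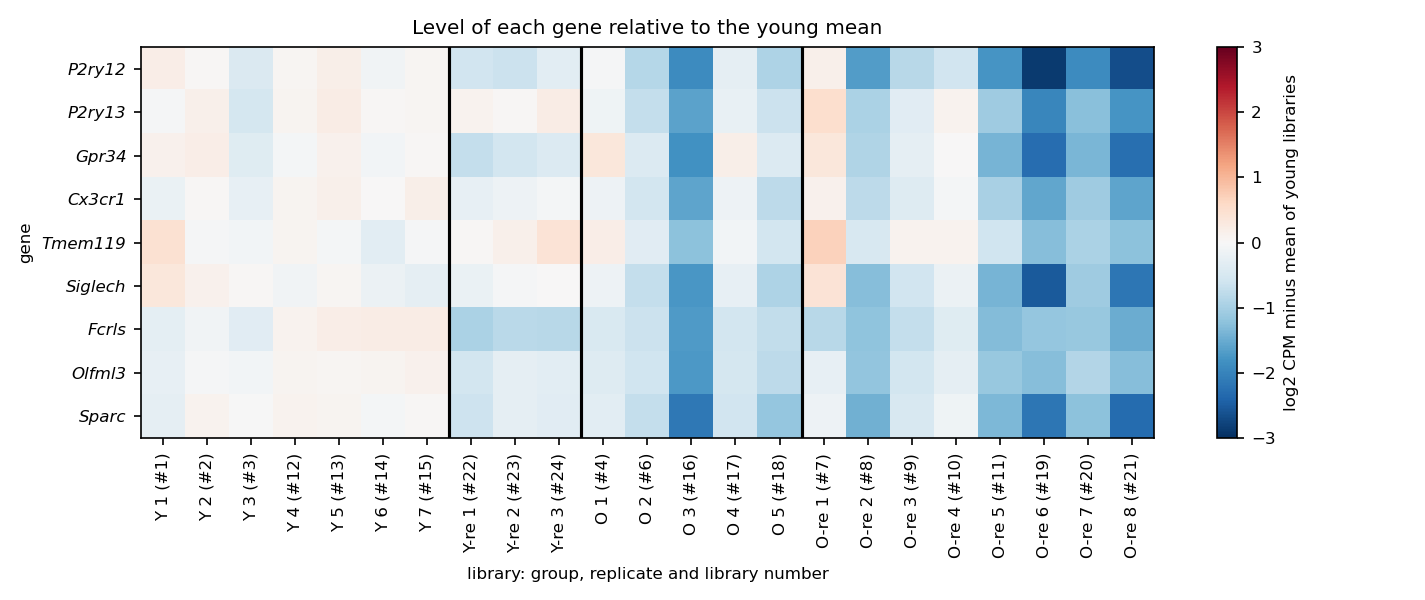
Log2 CPM of each of the 9 genes (rows) in each library (columns, with group, replicate and library number) minus the mean of the young libraries, on a colour scale from -3 to 3. Old libraries 2, 3 and 5 and old repopulated libraries 2, 5, 6, 7 and 8 are blue for all 9 genes, old repopulated library 1 is blue mainly for Fcrls, and in the 3 young repopulated libraries Fcrls is the gene with the deepest blue.

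The members spread far more within the old groups than within the young ones. The SD of log2 CPM was 0.12 to 0.25 per gene in young and 0.07 to 0.19 in young repopulated libraries, against 0.50 to 0.85 in old and 0.36 to 1.04 in old repopulated libraries. Fcrls and Olfml3 had the smallest SD among old repopulated libraries (0.36 and 0.44) and P2ry12 the largest (1.04). Old library 3 was the lowest of the old group for all 9 members, from 159 CPM for P2ry13 to 1045 CPM for Fcrls. The deepest value in any library was that of P2ry12 in old repopulated library 6, at -2.86 log2 units relative to the young mean.

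Across libraries the members moved together. After subtraction of group means, Pearson's r over the 23 libraries ranged from 0.641 to 0.986 over the 36 pairs, with a median of 0.928. The chromosomal neighbours P2ry12 and P2ry13 were the closest pair (0.986), and Tmem119 and Fcrls the most distant (0.641). The 8 pairs with Fcrls had a median of 0.777, and the 28 pairs without it 0.937. All points share library preparation and scaling, and pairs share genes, so these values describe the libraries and were not tested.

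By Pearson's r of log2 CPM over the 23 libraries, without subtraction of group means, the genes among 9534 (mean CPM of at least 5) most like the mean of the members were Gpr155 (r = 0.987), Pde3b (0.984), Plpp1 (0.982), Smo (0.982) and Plxdc2 (0.980). Csf1r, the target of the drug, ranked 27 (0.968). The single closest gene was Tmem100 for P2ry12 (0.986), Plxdc1 for P2ry13 (0.982) and for Cx3cr1 (0.988), Vsir for Tmem119 (0.980), Garnl3 for Siglech (0.981), Hdac11 for Gpr34 (0.963), Pros1 for Olfml3 (0.969), Smo for Sparc (0.979) and Anapc15 for Fcrls (0.949). Fcrls thus had the lowest best match, which dropped to 0.882 once group means were removed.

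Other genes of resident microglia were followed through a list of 24. Of these, 22 had a lower estimate in old than in young microglia with 0 called, beside 0.235% of all genes called lower and 2.6% higher. In old repopulated against young microglia 22 were lower, with 7 called lower and 0 higher, beside 5.92% and 9.29% of all genes. The 7 were Csf1r, Mef2c, Golm1, Hpgds, Crybb1, Serpine2 and Ecscr. Crybb1, a crystallin gene, fell by 1.95 ± 0.5255, the protease inhibitor gene Serpine2 by 1.42 ± 0.429, and Ecscr by 1.32 ± 0.348 on the log2 scale. Their adjusted p values were 0.0156, 0.0279 and 0.0139 by edgeR. None of the 24 was called in old repopulated against old (median log2 fold change -0.14) or in young repopulated against young (median -0.20). Csf1r measured 6909 ± 385 CPM in young (n = 7) and 4532 ± 1233 CPM in old microglia (n = 5), with 2897 CPM in the lowest old library.

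Ligands, adaptors, enzymes and relatives of the members were followed through a list of 25 genes, 23 of which passed the filter. Among the nucleotide-handling genes, Nt5e, which makes adenosine from AMP, rose in old against young by 3.16 ± 0.806 on the log2 scale (adjusted p = 0.0348 by edgeR) from a low level of 0.472 ± 0.326 to 4.26 ± 3.905 CPM. In old repopulated against young microglia the Nt5e rise was 4.73 ± 0.813 (adjusted p = 0.000969), to 12.6 ± 11.5 CPM. P2ry14, a receptor for UDP sugars from the same family as P2ry12 and P2ry13, rose in young repopulated against young microglia by 2.86 ± 0.453 (adjusted p = 0.00237), from 1.80 ± 0.542 to 13.1 ± 2.05 CPM, and in old repopulated against young by 1.65 ± 0.375 (adjusted p = 0.00573). The ATP-gated channel gene P2rx4 rose by 0.58 ± 0.146 and 0.38 ± 0.113 in the same comparisons (adjusted p = 0.0471 and 0.0254). In old repopulated against young 3 of the 23 genes were called higher and 3 lower, beside 9.29% and 5.92% of all genes tested. Those that fell, all by edgeR, were Sparcl1, a relative of Sparc (-1.30, adjusted p = 0.0340), Gpr84 (-0.80, adjusted p = 0.0469) and Abhd12, which degrades lysophosphatidylserine (-0.54, adjusted p = 0.0266). Sparcl1 is also on the astrocyte marker list and was at 3.19 ± 1.22 CPM in old repopulated and 7.85 ± 7.78 CPM in young libraries. The list held 0 calls in old repopulated against old, where 2 genes had an unadjusted p under 0.05, beside 1941 of all 18720 genes. Tyrobp, the adaptor of Siglech, was not called in any comparison and measured 794 ± 98.5 CPM in young, 957 ± 54.0 in young repopulated, 686 ± 46.6 in old and 816 ± 113 CPM in old repopulated microglia. The gene for the fractalkine ligand, Cx3cl1, was at 1.09 CPM or less in every library.

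In old against young microglia, monocyte and neutrophil markers moved opposite to the members. The summed level of 10 monocyte and neutrophil markers was 42.9 to 314 CPM in young libraries (median 59.5), 150.4 to 437 in young repopulated, 250 to 2585 in old and 168 to 3073 CPM in old repopulated libraries. All 10 had a higher estimate in old than in young microglia and 7 were called higher, beside 2.6% of all genes tested. The same counts held for old repopulated against young, beside 9.29% of all genes, with Chil3 called in place of Plac8. In young repopulated against young all 10 had a higher estimate and 0 were called. The highest sums were found in old repopulated library 6 (3073 CPM), old library 3 (2585 CPM), old library 5 (1422 CPM), old repopulated library 5 (1386 CPM) and old repopulated library 8 (1184 CPM). The same 5 libraries held between 4938 and 9495 CPM for the sum of the 9 members. Old repopulated library 2 held 7643 CPM for the members beside a marker sum of 288 CPM, and library 7 held 7453 CPM beside 929 CPM.

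The sum of 8 border-associated macrophage markers was 1013 to 1655 CPM in young, 1357 to 1588 in young repopulated, 1205 to 1963 in old and 634 to 2847 CPM in old repopulated libraries. In that list Ms4a7 and F13a1 were called higher in old than in young microglia, beside 2.6% of all genes tested. In old repopulated against young 5 of 8 were called higher, beside 9.29% of all genes. In young repopulated against young Ms4a7 rose by 2.47 ± 0.593 on the log2 scale (adjusted p = 0.0394 by edgeR). There 5 of 8 had an unadjusted p under 0.05, beside 2832 of all 18720 genes. No monocyte, neutrophil or border-associated macrophage marker was at 0 in all libraries of a group. Lymphocyte markers summed to at most 18.8 CPM, and neuron markers to at most 6.45 CPM. Astrocyte markers summed to 24.5 to 185 CPM, endothelial and pericyte markers to 21.2 to 90.8 CPM and oligodendrocyte markers to 96.1 to 139.8 CPM over all libraries. In these bulk libraries fewer cells of a type and less RNA per cell cannot be told apart. With the 5 libraries above 1000 CPM of monocyte and neutrophil markers left out, 2 of 9 members, Fcrls (-0.84, adjusted p = 0.00418 by edgeR) and Olfml3 (-0.59, adjusted p = 0.0231), were still called in old repopulated against young, where 924 of 18232 genes were, and 0 in old against young, where 6 of 18232 genes were. In that fit, with 3 old and 5 old repopulated libraries, the members' median log2 fold change was -0.36 in old against young and -0.41 in old repopulated against young. Fcrls was then also called in young repopulated against young (-0.88, adjusted p = 0.0158), where 417 of 18232 genes were. In old repopulated against young repopulated 7 of 9 members were lower in that fit, with a median of -0.21, and Gpr34 (0.24) and Fcrls (0.036) had a higher estimate. The limit of 1000 CPM was chosen after seeing the data. Libraries kept included old library 2 (899.9 CPM of these markers) and old repopulated library 7 (929 CPM), against at most 314 CPM in young libraries. Those left out also included the libraries with the lowest sums of the members. These fits therefore cannot decide the part of other cells in the results, which was not tested.

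**Figure D4:**
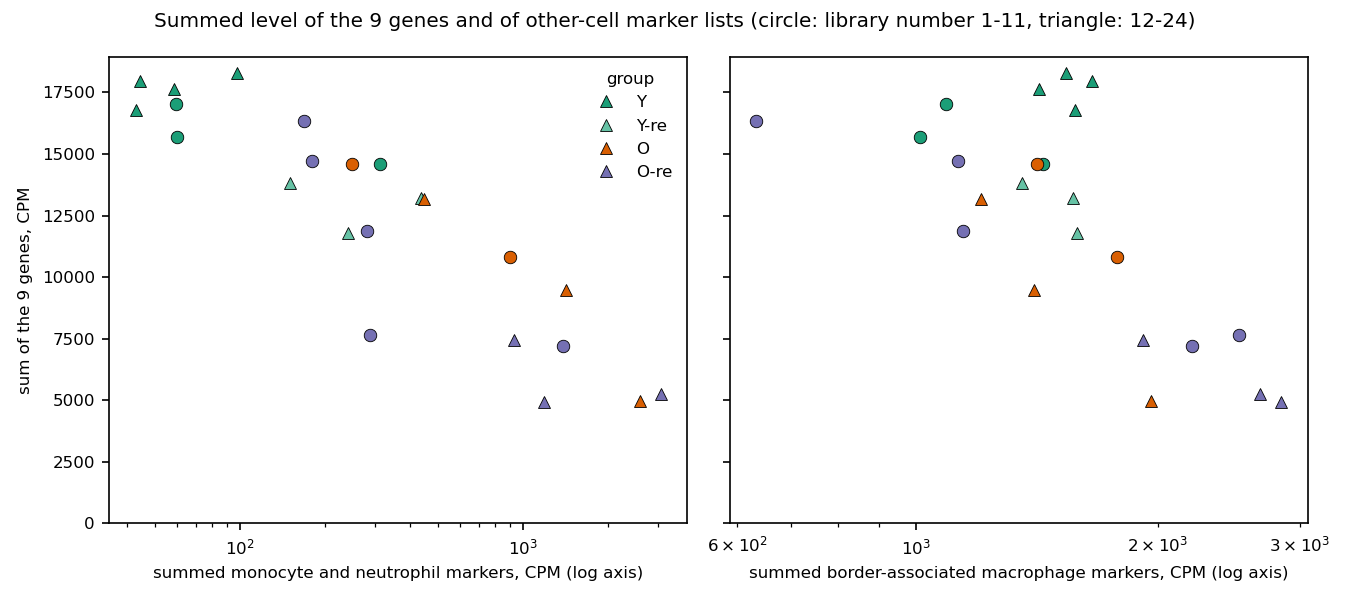
Sum of the 9 genes in CPM (vertical axis, from 0) against the summed monocyte and neutrophil markers (left, log axis) and the summed border-associated macrophage markers (right, log axis) in each library, coloured by group, with circles for library numbers 1 to 11 and triangles for 12 to 24. Old library 3 and old repopulated libraries 6 and 8 have the lowest sums of the 9 genes and marker sums of 2585, 3073 and 1184 CPM on the left axis.

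The libraries carry numbers that form 2 runs, 1 to 11 (3 young, 2 old and 5 old repopulated) and 12 to 24 (4 young, 3 young repopulated, 3 old and 3 old repopulated), and what the runs stand for was not given. In numbers 12 to 24 alone, 5 of 9 members were called lower in old against young (P2ry13, Cx3cr1, Fcrls, Olfml3 and Sparc), where 5.28% of all genes tested were. All 9 were called lower in old repopulated against young, with log2 fold changes from -2.45 (P2ry12) to -1.07 (Tmem119), beside 19.2% of all genes. Against young repopulated microglia 8 were called lower, all but Fcrls (-0.41 ± 0.222, adjusted p = 0.168 by edgeR), beside 17.8% of all genes. Old repopulated against old gave 3 members, P2ry12, P2ry13 and Gpr34, beside 7.06% of all genes, and young repopulated against young gave Fcrls, beside 3.89%.

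In numbers 1 to 11 alone no member was called in any comparison. The share of all genes called lower there was 0% for old against young, 0% for old repopulated against old and 0.00533% for old repopulated against young. All 9 members still had a lower estimate in old repopulated than in young microglia, with a median log2 fold change of -0.51 and a range of -0.71 (P2ry12) to -0.08 (Tmem119). In old against young 8 of 9 were lower, with Gpr34 at 0.0015 ± 0.435. A direct test of the difference between the runs was added after seeing the data. It called 0% of all genes for old against young, 0% for old repopulated against old and 1.39% for old repopulated against young, and 0 of 9 members in each. In the last of these the members' differences (numbers 12 to 24 less numbers 1 to 11) ran from -1.74 (P2ry12) to -0.69 (Olfml3) with adjusted p from 0.0672 to 0.268 by edgeR. Their unadjusted p ran from 0.0022 (P2ry13) to 0.066 (Siglech) by edgeR.

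**Figure D5:**
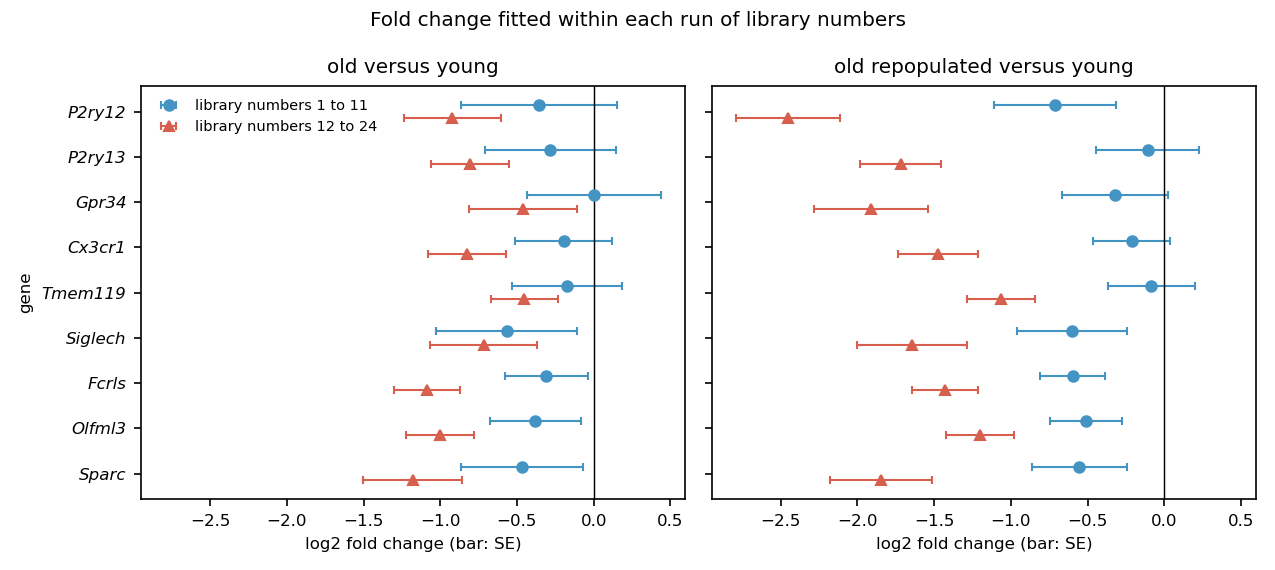
Log2 fold change with SE (horizontal axes) of each of the 9 genes fitted within library numbers 1 to 11 (blue circles) and 12 to 24 (red triangles) for old versus young (left) and old repopulated versus young (right). In the right panel every estimate of the later numbers, -2.45 to -1.07, lies further from 0 than that of the earlier numbers, -0.71 to -0.08.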

How the data were processed

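The authors deposited 1 gene table per library with expected counts, TPM and effective lengths (estimated counts need not be whole). Per the submitters' processing notes, FastQC 0.11.5, STAR, RSEM and limma were used with build GRCm38. Other versions, the annotation and strand use are not given in the sources used here. RNA input was 2.4 to 147 ng for a poly(A) kit that keeps strand, read as single 50 nt reads, per the labels' protocols. The TPM values are used as deposited. Of the deposited expected counts 87.26% were whole within 1e-06; all were rounded.

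Counts of all 23 libraries were fitted together in R 4.3.3 with edgeR 4.0.16 (filterByExpr, TMM, glmQLFit, glmQLFTest, 1 coefficient per group, no covariate), and called means a p under 0.05 after Benjamini-Hochberg adjustment over 18720 genes. SEs are the log2 fold change divided by the root of the F statistic. Log2 CPM used a prior count of 2 in the correlations, and no prior count in the SDs and in the levels relative to the young mean. DESeq2 1.42.0 and voom with sample quality weights (limma 3.58.1) were alternatives. The scripts were tested on simulated counts. No 2 libraries held identical counts.

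All 9 members are named, with called genes of both companion lists (with over 6, the 3 largest changes in each direction; the other called genes of the resident list and the Tyrobp and Cx3cl1 levels were added after their values were seen) and Csf1r. Some named items are not reported here. Members and lists were chosen with earlier results of these data known.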

Additional observations from a re-analysis of the deposited data

Results flagged for a closer look

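P2ry13 in young library 3 was at 333 CPM, against 473 to 565 CPM in the other 6 young libraries, and stood apart from its group: its gap to the nearest library was 0.603 of the group's range, above Dixon's 95% critical value for 7 libraries. It was the only 1 of 27 combinations of member and group that passed this value, and chance passes about 1 in 20. In the same library 16399 genes had a count, fewer than in any other, and it had the lowest P2ry12, Gpr34, Cx3cr1 and Fcrls levels of the young group.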

How the results depend on the processing

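With RLE or upper-quartile scaling or no filter, the number of members called did not change in any comparison, and scaling moved the median of all genes by less than 0.1 (log2). Old against young gave 1 member called. DESeq2 gave 2 (970 of 18720 genes called), as did only the groups compared (654 of 15987) and the run of library numbers as a term (618 of 18720). Voom gave 6 (2363 of 18720), numbers 1 to 11 gave 0 (1 of 18746) and numbers 12 to 24 gave 5 (2691 of 17186). The libraries with low monocyte and neutrophil markers (chosen after seeing the data) gave 0 (6 of 18232). When 1 library was left out 0 to 2 were called. Old repopulated against young gave 4, but 6 by DESeq2 (3691 of 18720 genes called), 9 by voom (6646 of 18720) and 8 with the run as a term (4585 of 18720). Numbers 1 to 11 gave 0 (2 of 18746), numbers 12 to 24 gave 9 (7068 of 17186) and the low-marker libraries 2 (924 of 18232). When 1 library was left out 3 to 8 were called (8 without old repopulated library 1, 6 without library 4). Young repopulated against young gave 0. DESeq2 gave 1 member (834 of 18720 genes called) and voom 2 (2574 of 18720). With only the groups compared 5 were called, P2ry12, Fcrls, Gpr34, Olfml3 and Sparc (1255 of 16726). Numbers 12 to 24 gave 1 (1598 of 17186) and the low-marker libraries 1 (417 of 18232). When 1 library was left out 0 to 1 were called. Old repopulated against old gave 0, but 3 in numbers 12 to 24 (2187 of 17186 genes called). Old repopulated against young repopulated gave 0, but 7 by voom (3189 of 18720) and 8 in numbers 12 to 24 (6236 of 17186). Some uncalled values changed sign. In old against young, Gpr34 was at 0.0015 in numbers 1 to 11 and 0.064 in the low-marker libraries. For Siglech in young repopulated against young the value was 0.0013 by voom, 0.22 with the run as a term and 0.075 in numbers 12 to 24. In old repopulated against old, Tmem119 was at -0.30 by voom, -0.19 with the run as a term and -0.61 in numbers 12 to 24, and P2ry13 at 0.17 in numbers 1 to 11 and 0.091 in the low-marker libraries. When 1 library was left out, old repopulated against old ranged from -0.27 to 0.021 for Cx3cr1, -0.22 to 0.047 for Olfml3, -0.28 to 0.11 for P2ry13, -0.29 to 0.079 for Sparc and -0.19 to 0.18 for Tmem119. The cause of these changes was not tested. No paired analysis was possible because the labels give no shared replicate numbers.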
